A study of Homo sapiens with 3 samples.

Results

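The potassium channel gene family was described in 3 single-cell RNA-seq libraries of SC-α cells, pancreatic alpha-like cells made from the human embryonic stem cell line HUES8. Members were the rows whose symbol begins with KCN, further letters and a number. Of 111 such rows among 33538 features, 13 antisense names and 4 further genes (KCNJ8, KCNJ11, KCNK3 and KCNK16) were left out by the rule, which left 94 members, 92 of them annotated as protein-coding. The labels put all 3 libraries in 1 group and name no treatment, so the comparisons were made within each library, between barcodes grouped by the hormone transcripts they hold. With the library as a block, each p-value measures only how the difference between groups varied over these libraries, with spread shared across genes. Nothing in the labels says that the replicates came from separate differentiations, so that variation may be technical.

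A barcode was kept when 1000 or more genes were seen in it and no more than 20% of its UMIs (unique molecular identifiers, each counted as 1 transcript molecule) came from mitochondrial genes, which left 1160, 1027 and 1466 in replicates 1, 2 and 3. INS cells had at least 1% of their UMIs from the insulin gene and numbered 26, 59 and 7. SST cells had at least 1% from the somatostatin gene and numbered 30, 54 and 29. TPH1 cells had at least 3 UMIs of TPH1, which encodes the serotonin-synthesizing enzyme of enterochromaffin cells, and numbered 36, 20 and 107. GCG cells had at least 5% of their UMIs from the glucagon gene and numbered 854, 860 and 914. The groups overlap: 23, 46 and 3 of the INS cells and 19, 37 and 24 of the SST cells were also GCG cells. Tests therefore used GCG-alone cells, which met the glucagon limit and none of the other limits (809, 778 and 885), and 260, 125 and 439 kept barcodes fell in none of the 4 groups. Deposited totals were 30139788, 31122791 and 30980799 UMIs, and the kept barcodes had medians of 15267, 20721 and 9991.5 UMIs. Apart from GCG itself, which chose the cells, GCG cells held all 6 alpha markers checked at 20 CPM (counts per 1000000 UMIs) or more. So did INS cells, SST cells and the barcodes of no group. Of 7 beta markers, 4 reached 20 CPM in INS cells, INS itself, which chose these cells, included. The number was 2 in GCG-alone cells, 3 in SST cells, 4 in barcodes of no group and 6 in TPH1 cells. The beta-cell factor MAFA had no UMI in INS cells, nor in SST cells, TPH1 cells or barcodes of no group.

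Potassium channels let potassium leave or enter the cell and so set the resting voltage and the shape of the action potential. In islet alpha cells the voltage decides whether calcium channels open and glucagon granules are released. The family is divided by structure: voltage-gated channels open on depolarization, inward rectifiers pass current best near rest and include the channels opened by G proteins, two-pore channels carry background current, calcium- or sodium-activated channels respond to ions inside the cell, and modifier and auxiliary subunits alter the channels they join.

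With a floor of 3 UMIs over the kept barcodes, 66, 65 and 71 members were detected in replicates 1, 2 and 3. Of the 94 members, 63 were detected in all 3 libraries, 13 in 1 or 2 of them, 10 had UMIs but stayed under the floor, and 8 had no UMI in any (KCNA6, KCNA10, KCNE1B, KCNG4, KCNJ18, KCNK18, KCNQ1DN and KCNU1). Detection in all 3 libraries covered 13 of 17 voltage-gated pore-forming members (KCNA to KCND), 7 of 8 members of the EAG, ERG and ELK group (KCNH), 10 of 13 two-pore members (KCNK) and 7 of 14 inward rectifiers (KCNJ). Among the others it covered 7 of 10 modifier subunits (KCNF, KCNG, KCNS and KCNV), 5 of 8 calcium- or sodium-activated members and 12 of 17 auxiliary subunits. A GCG cell held a median of 11.5, 14 and 7 potassium channel UMIs from 7, 8 and 5 different members. No member UMI was seen in 10, 36 and 10 GCG cells, which is 1.17%, 4.19% and 1.09% of them.

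All members together made up 680 ± 22.1 CPM in GCG cells (mean ± SD, n = 3 libraries, as for all means below). The level was concentrated in few genes: KCNJ6 alone gave 24.0 ± 0.560% of member UMIs, the leading 3 members gave 47.2 ± 1.35% and the leading 10 gave 73.6 ± 1.37%. The reads count 1 end of each molecule, so levels were not divided by transcript length. By class, inward rectifiers summed to 227 ± 5.64 CPM, the EAG, ERG and ELK group to 138 ± 7.94 CPM, voltage-gated pore-forming members to 112 ± 9.47 CPM and calcium- or sodium-activated members to 86.1 ± 6.59 CPM. Two-pore members summed to 41.8 ± 15.2 CPM, auxiliary subunits to 36.0 ± 2.79 CPM and modifier subunits to 14.3 ± 5.60 CPM. Of these sums, those of the modifier subunits and two-pore members varied most between libraries relative to their means.

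KCNJ6, the pore-forming subunit of a potassium channel opened by G proteins, was the most abundant member. It had 169, 158 and 163 CPM in the GCG cells of replicates 1, 2 and 3. A UMI of KCNJ6 was seen in 86.9%, 84.1% and 76.0% of GCG cells, and in 54.2%, 54.1% and 55.9% when each cell was thinned to 5000 UMIs. The shares differed less between libraries once depth was equal. Of the 42 collagen-expressing mesenchymal cells of replicate 3, 1 (2.38%) had a UMI of KCNJ6. These 42 cells had a median of 8882 UMIs, against 10498.5 in the GCG cells of that library. Replicates 1 and 2 had only 3 such cells each, in which inward rectifiers summed to 0 and 54.4 CPM. No single cell held more than 0.668% of the KCNJ6 UMIs of a library's GCG cells.

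The gene lies at chr21:37607376-38121345 on the minus strand (GRCh38). Its sequence upstream of the start that RefSeq lists is shown because it is the leading member of the family here. That start lies inside the annotated gene span, and the window is chr21:37916458-37916707 (GRCh38.p14), 5′ to 3′ on the gene's strand:
KCNJ6: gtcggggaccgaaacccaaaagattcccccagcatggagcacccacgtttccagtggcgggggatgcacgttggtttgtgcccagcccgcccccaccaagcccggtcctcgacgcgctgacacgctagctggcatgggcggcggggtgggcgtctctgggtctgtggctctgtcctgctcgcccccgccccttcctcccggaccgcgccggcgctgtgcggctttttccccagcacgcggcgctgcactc
The window is 70.0% G and C. It was searched on both strands for a cAMP response element (TGACGTCA), a forkhead site (TGTTTAC) and an ETS site (CCGGAA), and a match would stand in capitals. KCNJ6 has none of these letters in this window. Of 27305 genes with a RefSeq window, 2.03%, 3.66% and 17.2% held the cAMP response element, the forkhead and the ETS letters, and of the 70 members with a window 1.43%, 2.86% and 12.9% did.

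The other inward rectifiers were lower than KCNJ6. KCNJ3, which forms G-protein-opened channels together with KCNJ6, had 28.5, 32.7 and 33.0 CPM in GCG cells. KCNJ16, a subunit that forms channels with other rectifiers, had 17.4, 16.5 and 20.7 CPM. KCNJ2, a strong rectifier that holds cells near rest, had 12.7, 10.8 and 9.52 CPM. All 3 were at similar levels in each library, with ranges that did not reach that of KCNJ6. KCNJ10 and KCNJ15, which join KCNJ16 in kidney channels, stayed under the detection floor in every library.

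KCNH6, a channel of the ERG type, which repolarizes cells with a slowly closing current, was the next most abundant member, with 98.9, 93.4 and 89.2 CPM. Its relative KCNH2, the ERG channel of the heart, had 28.6, 31.4 and 28.5 CPM, and KCNH5, of the EAG type, had 12.9, 6.97 and 7.04 CPM. Both ERG genes varied little between libraries. KCNH7 and KCNH8 were near 2 CPM, at means of 2.24 ± 0.612 and 1.99 ± 0.375 CPM.

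KCNMA1, the pore of the large-conductance channel gated by calcium and voltage, had 58.6, 61.2 and 70.8 CPM. Its auxiliary subunits followed at lower levels, KCNMB2 at 16.1, 21.4 and 24.9 CPM and KCNMB3 and KCNMB4 at means of 4.15 ± 0.763 and 3.8 ± 0.163 CPM. KCNN3, a small-conductance calcium-activated channel, had 9.01, 16.5 and 10.9 CPM, and KCNT2, a sodium-activated channel, had 10.3, 10.1 and 8.92 CPM. KCNMA1 exceeded each of these in every library.

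Among voltage-gated members, KCND3, which carries the fast inactivating A-type current, led with 29.1, 21.6 and 30.3 CPM. KCNB2, a delayed rectifier, had 22.7, 14.9 and 25.6 CPM. The KCNC genes, known from fast-spiking neurons, were represented by KCNC4 at 20.04, 21.1 and 15.97 CPM. Replicate 2 was the lowest library for KCND3 and KCNB2 but the highest for KCNC4. KCNA5, a delayed rectifier of heart muscle, had 6.99, 8.92 and 8.33 CPM. KCNF1, an electrically silent subunit that modifies KCNB channels, had 12.4, 14.5 and 5.26 CPM.

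KCNK17, an alkaline-activated two-pore channel, had the widest spread between libraries relative to its mean among members above 20 CPM. It had 41.6, 17.0 and 18.6 CPM and was seen in 17.9%, 6.71% and 9.06% of thinned GCG cells. Replicate 1 was highest, and the thinned shares kept the order of the levels. KCNK1, a weakly conducting two-pore channel, had 10.2, 8.29 and 8.03 CPM.

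In order of mean level, KCNJ6, KCNH6 and KCNMA1 each had a range over the libraries that did not overlap with that of the next member down. From KCNJ3 down to KCNF1, each member overlapped with the next, so that neighbours there have no order beyond the spread between libraries. In all, 16 members had means of at least 10 CPM in GCG cells, 21 members had 1 to 10 CPM and 57 had less than 1 CPM.

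**Figure D1:**
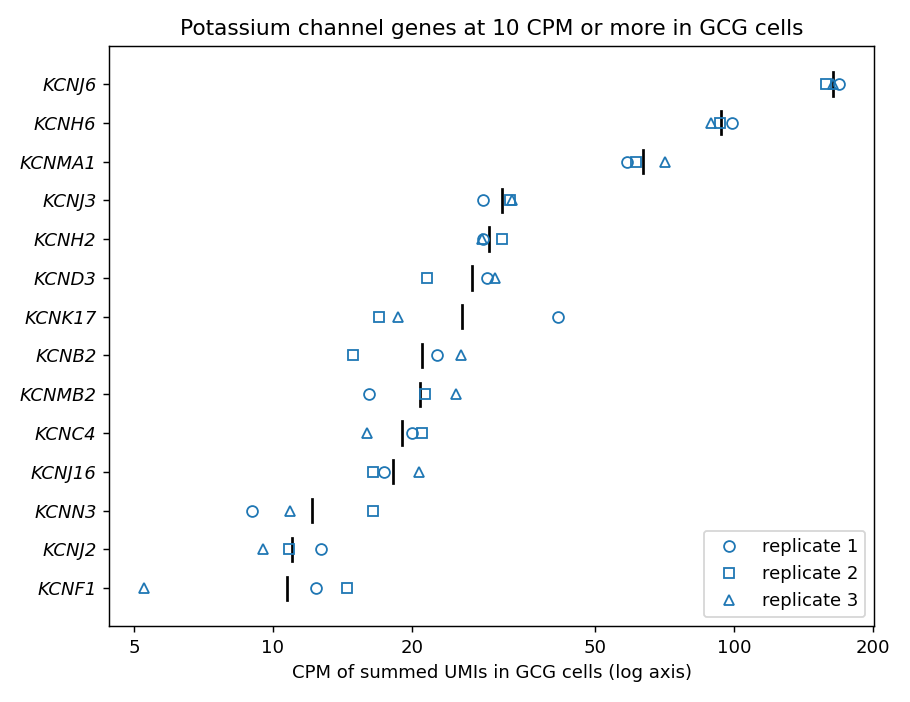
CPM of summed UMIs in GCG cells (log axis) for 14 members with a mean of at least 10 CPM, ordered by mean. Open symbols are the 3 libraries and bars their mean. KCNJ6, KCNH6 and KCNMA1 stand clear of the rest, and KCNK17 and KCNF1 differ by more than 2-fold between libraries.

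INS cells were compared with GCG-alone cells in replicates 1 and 2, since replicate 3 had 7 INS cells, under the minimum of 10. No member passed the test (edgeR quasi-likelihood, Benjamini-Hochberg adjusted over 13315 genes), while 0.909% of all genes were called higher and 0.481% lower. Of the 94 members 37 had enough counts to be tested, 4 had an unadjusted p under 0.05, and DESeq2 called 0 but gave no adjusted p for KCNJ2 and KCNMB2. The median log2 fold change was 0.03 over these members and -0.01 over all genes tested.

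The members nearest to a call had these values. KCNJ2 had 13.4 and 23.4 CPM in INS cells, against 12.5 and 9.55 CPM in GCG-alone cells (log2 fold change 0.93 ± 0.32 SE, edgeR adjusted p = 0.151). KCNH6 had 72.9 and 79.1 CPM in INS cells, against 99.6 and 93.4 CPM in GCG-alone cells (-0.31 ± 0.14, edgeR adjusted p = 0.433). KCNMB2 had 7.67 and 12.9 CPM in INS cells, against 16.3 and 21.9 CPM in GCG-alone cells (-0.84 ± 0.32, edgeR adjusted p = 0.263). In these 3 genes the groups did not overlap, which with 2 libraries a side was so for 40.1% of all genes tested and for 29.7% of the members tested. The INS cells of replicate 3, which entered no test, held 1, 9 and 3 UMIs of KCNJ2, KCNH6 and KCNMB2, and KCNMB2 was higher there than in GCG-alone cells (29.2 CPM in INS cells, against 24.8 CPM in GCG-alone cells). With barcodes up to 30% mitochondrial UMIs kept, all 3 libraries entered and KCNJ2 was called higher (log2 fold change 1.05, edgeR adjusted p = 0.00545).

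Of 21 listed genes outside the family whose products join potassium channels or carry potassium, such as the sodium pump subunits and the KCND partners DPP6 and DPP10, 15 were tested in INS cells and 0 passed by edgeR. INS cells and GCG-alone cells had similar depth, with medians of 18367.5 and 20799 against 16413 and 21634.5 UMIs in replicates 1 and 2. This comparison and the next 2 share the GCG-alone cells.

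SST cells differed from GCG-alone cells in 1 member. KCNJ2 was higher, with 23.1, 24.9 and 10.6 CPM in SST cells, against 12.5, 9.55 and 9.40 CPM in GCG-alone cells (log2 fold change 1.07 ± 0.25 SE, edgeR adjusted p = 0.00897, n = 3 libraries). It was higher in SST cells in each library, although the groups overlapped because replicate 3 was low. KCNJ2 lies at chr17:70168673-70180048 on the plus strand (GRCh38). This was 1 of 35 members tested, and over 12543 genes 0.797% were called higher and 0.438% lower. The call did not hold with DESeq2 (adjusted p = 0.883), without replicate 2 (0.771), without the library block (0.319), with cells thinned to 5000 UMIs (0.734) or in SST cells outside every other group (0.963, replicates 1 and 2 only).

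Other members were not called. KCNH6 had 80.0, 84.1 and 55.9 CPM in SST cells, against 99.6, 93.4 and 89.5 CPM in GCG-alone cells (-0.30 ± 0.13, edgeR adjusted p = 0.429). Restricted to SST cells outside every other group, 10 and 12 cells in replicates 1 and 2, KCNH6 was called lower (-1.52, edgeR adjusted p = 0.0207), beside 0.534% of 12933 genes called lower and 0.472% called higher. Those SST cells of replicate 2 had medians of 8163.5 UMIs and 6.64% mitochondrial UMIs, against 21634.5 UMIs and 14.7% in GCG-alone cells, and the part of this in the call was not tested. KCNH6 was lower in SST cells in each of the 3 libraries. KCNK17 had 26.7, 9.98 and 16 CPM in SST cells, against 42.7, 17.3 and 18.8 CPM in GCG-alone cells (-0.67 ± 0.25, edgeR adjusted p = 0.301). None of the 14 partner genes tested was called by edgeR. SST cells had medians of 18369.5, 27464.5 and 12526 UMIs, against 16413, 21634.5 and 10391 UMIs in GCG-alone cells, and the part of this difference in depth was not tested.

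TPH1 cells differed from GCG-alone cells in 13 of 35 members tested. KCNS3, KCNAB3, KCNH8, KCNH7, KCNC1, KCNJ3 and KCND3 were higher, and the lower members included KCNA5, KCNF1, KCNC4, KCNJ16 and KCNMA1. The 7 higher members are 20% of those tested, beside 7.18% of 12917 genes called higher, and the 6 lower members are 17.1%, beside 8.02% of genes called lower. The other 59 members had too few counts to be tested. KCNS3 and KCNAB3 had enough counts for the test only through the TPH1 cells and KCNA5 only through the GCG-alone cells. These 3 thus had to differ in level in the direction found, though a call was not fixed. Among the 32 members with at least 1 library over the count limit in both groups, 5 were called higher and 5 lower, 15.6% each. Of 12565 such genes, 6.06% and 8.01% were. Those 5 higher members include KCNH7 and KCNH8, over the limit in 3 libraries of TPH1 cells but in 1 and 2 of GCG-alone cells. Their tests thus also leaned on the TPH1 cells, where they are high. Both directions occurred within a class: among KCNC genes KCNC1 was higher and KCNC4 lower, and among rectifiers KCNJ3 was higher and KCNJ16 lower.

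**Figure D2:**
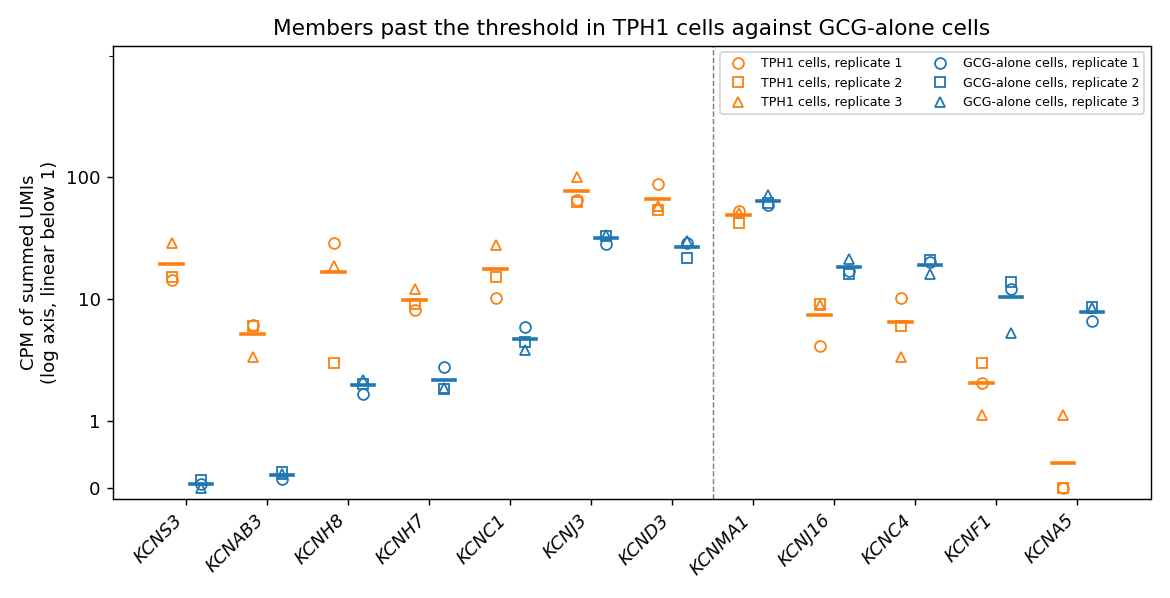
CPM of summed UMIs (log axis, linear below 1) of 12 members past the threshold, in TPH1 cells (orange, left of each pair) and GCG-alone cells (blue, right of each pair). Symbols are libraries, bars their mean, and the dashed line divides higher from lower members. The groups do not overlap in any of these members, which are drawn because they were called. For KCNS3, KCNAB3 and KCNA5 the count limit itself set the groups apart. Of all genes tested, called or not, 46.6% do not overlap, so the 2 are not like sets.

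KCNS3, an electrically silent subunit that modifies KCNB channels, had few UMIs in GCG-alone cells, and its fold change describes a gene tested only because of its level in TPH1 cells. It had 14.3, 15.04 and 28.8 CPM in TPH1 cells, against 0.0696, 0.119 and 0 CPM in GCG-alone cells, from 38 UMIs and 3 UMIs in all. The pooled ratio was 300.5, with a 95% counting interval of 95.3 to 1522 (log2 fold change 7.24 ± 0.66 SE, edgeR adjusted p = 7.83e-08, n = 3 libraries, as for all fits with 3 libraries below). A UMI of KCNS3 was seen in 13.9%, 10% and 14.95% of TPH1 cells, against 0.124%, 0.257% and 0% of GCG-alone cells. Most TPH1 cells thus had no KCNS3 UMI, and in replicate 2 a single cell held 80.0% of them. After thinning to 5000 UMIs the shares were 2.94%, 5.56% and 12.2% of TPH1 cells, against 0.129%, 0.143% and 0% of GCG-alone cells. KCNAB3, an auxiliary subunit of KCNA channels, had 8 UMIs on each side, at 6.14, 6.02 and 3.32 CPM in TPH1 cells, against 0.139, 0.237 and 0.207 CPM in GCG-alone cells (4.13 ± 0.83, edgeR adjusted p = 0.00119).

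In the EAG, ERG and ELK group, KCNH8, a slowly gated ELK channel, had 28.7, 3.01 and 18.8 CPM in TPH1 cells, against 1.67, 2.02 and 2.17 CPM in GCG-alone cells (2.67 ± 0.49, edgeR adjusted p = 5.38e-04). KCNH7, the third ERG gene, had 8.19, 9.03 and 12.2 CPM in TPH1 cells, against 2.78, 1.84 and 1.86 CPM in GCG-alone cells (1.77 ± 0.50, edgeR adjusted p = 0.0173). KCNH8 in replicate 2 rested on 1 UMI. KCNH6 had 196, 99.3 and 126 CPM in TPH1 cells, against 99.6, 93.4 and 89.5 CPM in GCG-alone cells, and was not called (0.11, edgeR adjusted p = 0.718), with a sign that turned without replicate 1 (-0.13). KCNH2 had 30.7, 36.1 and 24.4 CPM in TPH1 cells, against 28.6, 31.3 and 28.6 CPM in GCG-alone cells (-0.48 ± 0.21, edgeR adjusted p = 0.152).

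KCNJ3 had 65.5, 63.2 and 101 CPM in TPH1 cells, against 28.3, 32.7 and 33.7 CPM in GCG-alone cells (0.87 ± 0.17, edgeR adjusted p = 9.38e-04). KCNJ6, its channel partner, had 270, 174 and 159 CPM in TPH1 cells, against 168, 159 and 164 CPM in GCG-alone cells, and was not called (-0.20 ± 0.14, edgeR adjusted p = 0.392, and 0.27 under plain CPM). The KCNJ3 groups stood apart, as did those of 46.6% of all genes tested, while those of KCNJ6 overlapped. KCNJ16 had 4.09, 9.03 and 8.86 CPM in TPH1 cells, against 17.1, 16.1 and 21.5 CPM in GCG-alone cells (-1.80 ± 0.35, edgeR adjusted p = 9.13e-04).

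KCND3 had 88.0, 54.2 and 57.6 CPM in TPH1 cells, against 28.7, 21.5 and 29.9 CPM in GCG-alone cells (0.81 ± 0.18, edgeR adjusted p = 0.00273). KCNC1 had 10.2, 15.04 and 27.7 CPM in TPH1 cells, against 5.85, 4.45 and 3.82 CPM in GCG-alone cells (1.55 ± 0.41, edgeR adjusted p = 0.0110). KCNC4 went the other way, with 10.2, 6.02 and 3.32 CPM in TPH1 cells, against 20.1, 21.1 and 16.1 CPM in GCG-alone cells (-2.10 ± 0.38, edgeR adjusted p = 3.86e-04). None of these 3 genes overlapped between the groups, nor did 46.6% of all genes and 45.7% of members tested. KCNC2, of the same subfamily, had 20.5, 0 and 16.6 CPM in TPH1 cells, against 2.78, 1.42 and 5.99 CPM in GCG-alone cells, and was just outside the threshold (1.41 ± 0.49, edgeR adjusted p = 0.0597). The count of 0 in replicate 2 allows up to 9.03 CPM.

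KCNA5 had 1 UMI in TPH1 cells of replicate 3 and none in the other libraries, at 0, 0 and 1.11 CPM, against 6.54, 8.54 and 8.47 CPM in GCG-alone cells. Its pooled ratio was 0.0741, with a 95% counting interval of 0.00187 to 0.416 (log2 fold change -4.19 ± 0.83, edgeR adjusted p = 0.00106). The counts of 0 allow up to 6.14 and 9.03 CPM in replicates 1 and 2, so replicate 2 alone does not show a lower level. KCNF1 had 1 UMI in the TPH1 cells of each library, at 2.05, 3.01 and 1.11 CPM, against 12.1, 13.8 and 5.27 CPM in GCG-alone cells, with a pooled ratio of 0.155 and a 95% counting interval of 0.0319 to 0.457 (-2.80 ± 0.59, edgeR adjusted p = 0.00181). Such intervals cover counting error only. KCNMA1 had 53.2, 42.1 and 50.9 CPM in TPH1 cells, against 58.7, 61.2 and 71.8 CPM in GCG-alone cells (-0.85 ± 0.16, edgeR adjusted p = 8.53e-04).

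The upstream windows of the 3 called members with the largest fold changes that had a RefSeq window are shown 5′ to 3′, at chr2:17877597-17877846 on the plus strand for KCNS3 (the first of 2 starts listed), chr12:5043629-5043878 on the plus strand for KCNA5 and chr2:10911684-10911933 on the plus strand for KCNF1 (GRCh38.p14). Capitals mark the cAMP response element:
KCNS3: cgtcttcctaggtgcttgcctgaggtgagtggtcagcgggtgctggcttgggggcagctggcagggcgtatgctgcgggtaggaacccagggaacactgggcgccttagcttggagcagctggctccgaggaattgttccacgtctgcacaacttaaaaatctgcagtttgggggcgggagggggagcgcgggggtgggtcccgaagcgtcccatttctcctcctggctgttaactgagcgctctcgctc
KCNA5: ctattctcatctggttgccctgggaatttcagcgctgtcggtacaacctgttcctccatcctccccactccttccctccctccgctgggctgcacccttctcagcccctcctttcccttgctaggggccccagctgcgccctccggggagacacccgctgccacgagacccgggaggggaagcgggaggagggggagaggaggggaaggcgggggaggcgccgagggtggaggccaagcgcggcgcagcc
KCNF1: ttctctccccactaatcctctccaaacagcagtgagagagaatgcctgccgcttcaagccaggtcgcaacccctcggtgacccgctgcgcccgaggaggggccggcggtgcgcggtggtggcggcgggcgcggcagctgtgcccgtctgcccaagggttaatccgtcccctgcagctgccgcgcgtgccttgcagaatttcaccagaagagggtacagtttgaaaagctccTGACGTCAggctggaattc
KCNF1 holds these letters once, and KCNS3 and KCNA5 hold none of the 3 motifs in these windows. The windows are 62.4%, 68.8% and 63.6% G and C. Of the 5 higher members with a window, 2 held the ETS letters and 0 the others, and of the 5 lower members with a window, 1 held the ETS letters and 1 the cAMP response element.

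Scaling moved all genes in this comparison. Without normalization factors (plain CPM) the median log2 fold change of all genes was 0.45, with 3914 genes called higher and 383 lower in place of 927 and 1036, and 10 members were called higher and 5 lower. KCNMA1 then lost its call (-0.39, edgeR adjusted p = 0.0825), 3 members gained one, KCNH6 and KCNC2 among them, and the other 12 calls held with their signs. Leaving out replicate 1 ended the calls of KCND3 (edgeR adjusted p = 0.119), KCNH7 (0.0511) and KCNH8 (0.0787), and leaving out replicate 3 those of KCNC1 (0.598), KCNH7 (0.373) and KCNJ3 (0.113). KCNAB3 had too few counts to be tested once any library was left out.

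Other genes and cell markers moved beside these members. Of 14 partner genes tested in TPH1 cells, 2 were higher and 2 lower by edgeR, beside 7.18% and 8.02% of 12917 genes. ATP1B1, a sodium pump subunit, had 215, 126 and 172 CPM in TPH1 cells, against 215, 209 and 257 CPM in GCG-alone cells (-0.88 ± 0.14, edgeR adjusted p = 7.98e-05). DPP6, a partner of KCND channels, had 119, 93.3 and 66.4 CPM in TPH1 cells, against 49.5, 55.8 and 36.5 CPM in GCG-alone cells (0.51 ± 0.15, edgeR adjusted p = 0.0257). The calmodulin gene CALM3 was lower (-0.41), though it had the opposite sign under plain CPM (0.07). Enterochromaffin markers other than TPH1, which chose the cells, summed to 1425 to 1462 CPM in TPH1 cells (3 of 4 at 20 CPM or more), against 217 to 275 CPM in GCG-alone cells (2 of 4), where LMX1A was at 0. Alpha markers other than GCG summed to 26186, 18166 and 18766 CPM in TPH1 cells (5 of 6 at 20 CPM or more). In GCG-alone cells, which GCG chose, they summed to 76851, 74721 and 76353.5 CPM (6 of 6). Neuronal markers summed to 493, 406 and 739 CPM in TPH1 cells (3 of 5 at 20 CPM or more), against 315, 236 and 398 CPM in GCG-alone cells (3 of 5). Cycling markers summed to 2.05, 153 and 3.32 CPM in TPH1 cells, against 1.46, 24.6 and 2.07 CPM in GCG-alone cells, so that replicate 2 stood apart. Neural or glial markers (1 of 5 at 20 CPM or more, SOX10 at 0) summed to 90.3 to 174 CPM in TPH1 cells, against 1.60 to 7.75 CPM in GCG-alone cells, and the part of these markers in the results was not tested. TPH1 cells had medians of 11763.5, 14185 and 8075 UMIs, against 16413, 21634.5 and 10391 UMIs in GCG-alone cells.

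**Figure D3:**
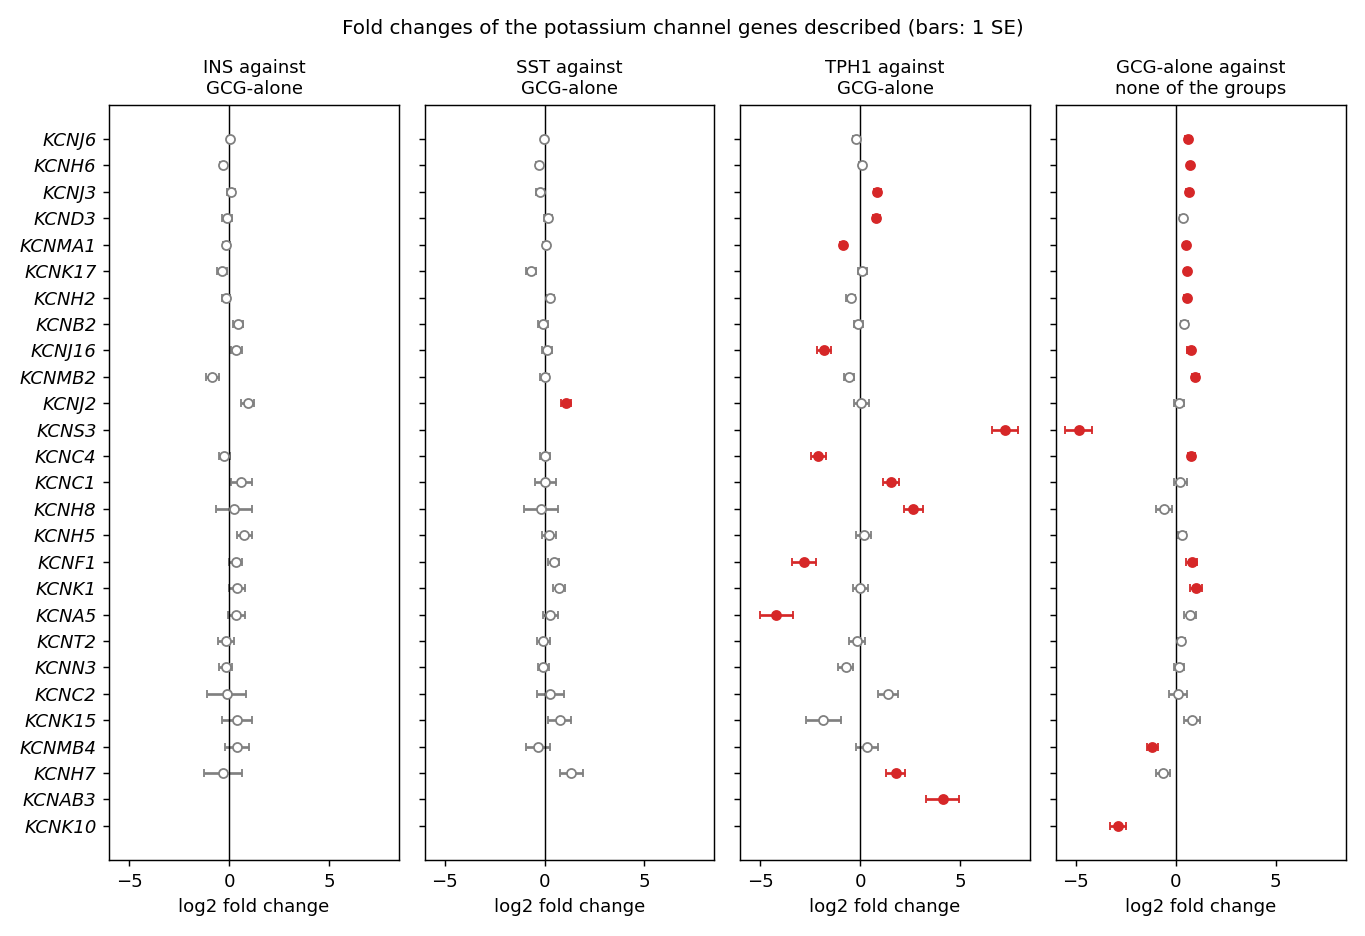
log2 fold change with 1 SE in the 4 comparisons for 27 members, ordered by their highest mean level. Filled red points passed an adjusted p of 0.05, open grey points did not, and members without a point were not tested. INS cells have no filled point, SST cells 1, TPH1 cells 12 and GCG-alone cells 14.

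GCG-alone cells differed in 14 of 37 members tested from the barcodes in none of the 4 groups. Higher were KCNK1, KCNMB2, KCNF1, KCNC4, KCNJ16, KCNH6, KCNJ3, KCNJ6, KCNK17, KCNH2 and KCNMA1, and lower were KCNS3, KCNK10 and KCNMB4. The 11 higher members are 29.7% of those tested, beside 11.9% of 13703 genes called higher, and the 3 lower are 8.11%, beside 17.3% of genes called lower. KCNS3, KCNK10 and a further, uncalled member had enough counts for the test only through the barcodes of no group. Each of them thus had to be lower in GCG-alone cells, though a call was not fixed. Among the 34 members with at least 1 library over the count limit in both groups, 11 were called higher (32.4%) and 1 lower (2.94%), beside 12.4% and 13.5% of 13019 such genes. The higher members include the 3 most abundant ones and cover rectifiers, ERG channels, the KCNMA1 pore with its KCNMB2 subunit and 2 two-pore channels.

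The higher calls depend on scaling. Under plain CPM the median log2 fold change of all genes was -0.29, with 323 genes called higher and 4794 lower in place of 1629 and 2377, and 2 members were called higher and 5 lower. KCNH6 and KCNMB2 were the higher members called under both scalings. KCNH6 had 99.6, 93.4 and 89.5 CPM in GCG-alone cells, against 89.2, 73.9 and 53.9 CPM in barcodes of no group (log2 fold change 0.73 ± 0.11, edgeR adjusted p = 0.00103, and 0.41 under plain CPM). KCNMB2 had 16.3, 21.9 and 24.8 CPM in GCG-alone cells, against 14.9, 12.5 and 12.1 CPM in barcodes of no group (0.98 ± 0.18, edgeR adjusted p = 0.00321, and 0.66 under plain CPM). The groups did not overlap in either gene, nor in 44.4% of all genes and 21.6% of members tested. For KCNH6 the nearest values were 89.5 CPM in GCG-alone cells of replicate 3 and 89.2 CPM in barcodes of no group of replicate 1.

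KCNJ6 had 168, 159 and 164 CPM in GCG-alone cells, against 191, 128 and 93.9 CPM in barcodes of no group (0.62 ± 0.15, edgeR adjusted p = 0.0113). Its level in replicate 1 was lower in GCG-alone cells, and under plain CPM it was not called (0.30, edgeR adjusted p = 0.168). KCNJ3 had 28.3, 32.7 and 33.7 CPM in GCG-alone cells, against 27.0, 27.1 and 20.5 CPM in barcodes of no group (0.68 ± 0.14, edgeR adjusted p = 0.00589). KCNMA1 had 58.7, 61.2 and 71.8 CPM in GCG-alone cells, against 48.3, 66.7 and 52.3 CPM in barcodes of no group (0.54 ± 0.12, edgeR adjusted p = 0.00833). Neither KCNJ3 nor KCNMA1 was called under plain CPM, with adjusted p of 0.0923 and 0.206, and KCNMA1 overlapped between the groups. The 6 further higher members had log2 fold changes of 0.56 (KCNH2) to 1.03 (KCNK1), and none of them was called under plain CPM. In all 6 the groups overlapped. By CPM, KCNK1, KCNF1 and KCNJ16 were higher in GCG-alone cells in only 2 of the 3 libraries.

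The 3 lower members kept their calls under plain CPM. KCNS3 had 0.0696, 0.119 and 0 CPM in GCG-alone cells, against 4.97, 1.98 and 1.86 CPM in barcodes of no group, a pooled ratio of 0.0253 with a 95% counting interval of 0.0049 to 0.0830 (-4.84 ± 0.68, edgeR adjusted p = 5.45e-04). KCNK10, a two-pore channel opened by stretch and lipids, had 0.557, 0.297 and 0.517 CPM in GCG-alone cells, against 4.62, 2.64 and 5.81 CPM in barcodes of no group (-2.88 ± 0.41, edgeR adjusted p = 6.61e-04). KCNMB4 had 3.97, 3.86 and 3.62 CPM in GCG-alone cells, against 10.7, 6.60 and 14.4 CPM in barcodes of no group (-1.17 ± 0.28, edgeR adjusted p = 0.0122). The groups did not overlap in KCNMB4, nor in 44.4% of all genes tested, and KCNMB4 stayed under 4 CPM in GCG-alone cells. KCNS3 and KCNK10 were tested only through the barcodes of no group. Their low level in GCG-alone cells and the gap between their groups were thus set by the count limit. Outside the threshold was KCNB2 (0.44 ± 0.17, edgeR adjusted p = 0.0777, and 0.11 under plain CPM). Its means were 21.2 CPM in GCG-alone cells and 19.9 CPM in barcodes of no group, with overlapping groups. By CPM it was higher in GCG-alone cells in only 1 of the 3 libraries. Leaving out replicate 1 ended the calls of KCNF1, KCNH2, KCNK1, KCNK17, KCNMA1 and KCNMB4 (edgeR adjusted p of 0.377, 0.0752, 0.100, 0.0649, 0.0606 and 0.0566), and leaving out replicate 3 those of KCNJ16, KCNK1 and KCNMB4 (0.126, 0.125 and 0.120). KCNS3 had too few counts to be tested without replicate 1.

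**Figure D4:**
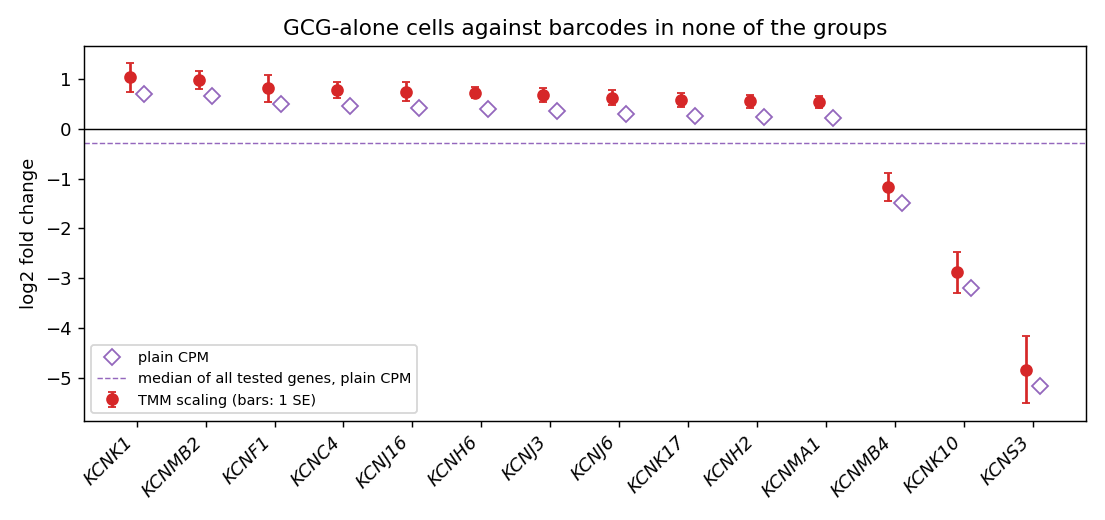
log2 fold change of the 14 members called in GCG-alone cells against barcodes of no group, with TMM scaling (filled, 1 SE) and plain CPM (open diamonds). The dashed line is the plain CPM median of all genes tested, -0.29. Each member has the same sign under both scalings, and the plain CPM values lie below the TMM values.

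The barcodes of no group are a mixture. Of them 132, 71 and 176 still had at least 1% of UMIs from GCG. Mesenchymal markers (5 of 5 at 20 CPM or more) summed to 2.08 to 14.6 CPM in GCG-alone cells, against 479 to 2159 CPM in barcodes of no group. Neural or glial markers summed to 1.60 to 7.75 CPM in GCG-alone cells, with SOX10 at 0, against 287 to 669 CPM in barcodes of no group (2 of 5 at 20 CPM or more). Cycling markers (4 of 4 at 20 CPM or more) summed to 1.46 to 24.6 CPM in GCG-alone cells, against 133 to 395 CPM in barcodes of no group. Their part in the results was not tested. Against only the barcodes with GCG under 1% of UMIs, KCNJ6 rose by 1.07 on the log2 scale (edgeR adjusted p = 0.00906), and KCNF1 (0.0513) and KCNK1 (0.0902) lost their calls, while KCNB2 (0.0166) gained one. The 42 collagen-expressing cells of replicate 3 held 11 UMIs of KCNMA1 (25.9 CPM) and 0 of KCNK10.

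Of 15 partner genes tested in GCG-alone cells, 4 were higher and 3 lower by edgeR, beside 11.9% and 17.3% of 13703 genes. ATP1B3, a sodium pump subunit, had 37.8, 30.5 and 36.0 CPM in GCG-alone cells, against 85.2, 66.7 and 101 CPM in barcodes of no group (-0.96 ± 0.11, edgeR adjusted p = 1.89e-04). DPP6 had 49.5, 55.8 and 36.5 CPM in GCG-alone cells, against 43.3, 28.4 and 23.0 CPM in barcodes of no group (0.88 ± 0.14, edgeR adjusted p = 0.00130, and 0.56 under plain CPM). The pacemaker channel gene HCN3 was also higher (0.57 ± 0.17, edgeR adjusted p = 0.0276, and 0.25 under plain CPM).

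Shares of cells with a UMI were compared for the 3 leading members. After thinning to 5000 UMIs, KCNH6 was seen in 40.5%, 37.3% and 34.7% of GCG-alone cells, against 28.2%, 34.6% and 21.3% of barcodes of no group. KCNJ6 was seen in 53.9%, 53.2% and 56.5% of GCG-alone cells, against 46.4%, 44.9% and 35.7% of barcodes of no group. KCNMA1 was seen in 26.8%, 28.0% and 30.4% of GCG-alone cells, against 22.7%, 29.5% and 21.6% of barcodes of no group. KCNJ6 and KCNH6 were higher in GCG-alone cells in each library, and KCNMA1 in replicates 1 and 3. For KCNJ6 in replicate 1 the share was higher in GCG-alone cells although the CPM was lower. Before thinning, 86.8%, 83.9% and 76.3% of GCG-alone cells, against 67.3%, 48.0% and 43.5% of barcodes of no group, had a KCNJ6 UMI. GCG-alone cells were deeper, with medians of 16413, 21634.5 and 10391 UMIs, against 11309.5, 8889 and 8850 UMIs in barcodes of no group, and had medians of 14.7% to 15.1% mitochondrial UMIs, against 12.1% to 13.3% in barcodes of no group. The part of these differences in the calls was not tested.

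**Figure D5:**
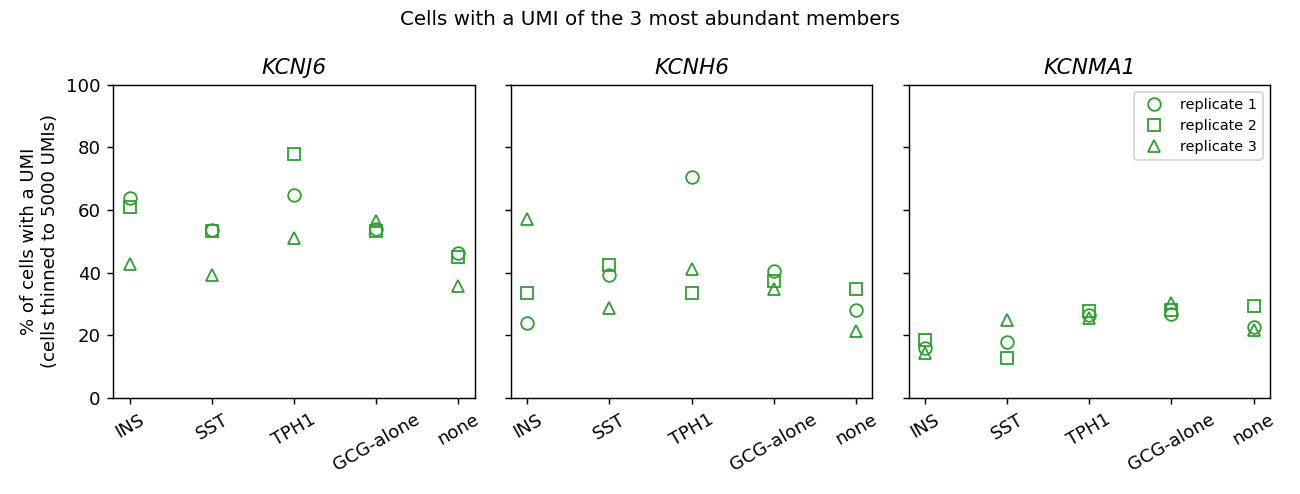
Percent of cells with a UMI of KCNJ6, KCNH6 and KCNMA1 after thinning each cell to 5000 UMIs, by group. Each symbol is a library. For KCNJ6 the 3 libraries sit between 53.2% and 56.5% in GCG-alone cells and between 35.7% and 46.4% in barcodes of no group.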

How the data were processed

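Single-cell RNA-seq (10x Genomics 3′ chemistry) was analysed from the 3 libraries of the series. The authors deposited unnormalized UMI counts for each gene in each barcode, made with Cell Ranger 4.0.0 on GRCh38 per the submitters' processing notes. Gene positions came from a GENCODE annotation of GRCh38 by gene ID (94 of 94 members) and upstream sequences from RefSeq (GRCh38.p14).

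Kept barcodes had 1000 or more genes and a mitochondrial share of UMIs up to 20%. No barcode that passed was shared between libraries. Scrublet (scanpy 1.11.5) marked 18, 11 and 18 kept barcodes as doublets, which stayed in the main analysis. Counts were summed per library and group (at least 10 cells per side) and tested with edgeR 4.0.16 in R 4.3.3 (TMM, filterByExpr, quasi-likelihood test, library as block, Benjamini-Hochberg threshold 0.05 over all genes tested). The block pairs the groups by library, since 1 library gives a sum to each. The SE was derived from the fold change and its F statistic. The test was tried on simulated counts. CPM are per 1000000 UMIs of the summed group, without normalization factors. Shares of cells were also taken after thinning to 5000 UMIs, leaving out shallower cells. Cell groups are cut from hormone counts and are not clusters.

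The members, groups, gene lists, motifs and tests were chosen with earlier results of these data known. Named members had a mean of at least 10 CPM in a group or passed a test (30, of which 27 are drawn), and partner genes are named up to 4 per comparison by size; the upstream windows and the fold changes given for uncalled members were chosen after their values were seen. Alternatives were DESeq2 1.42.0, other size factors, no low-count filter, other cell limits, hormone genes left out, no block and each library left out. Plain CPM, all libraries for INS and barcodes under 1% GCG were added after seeing the data, as were counts over genes past the count limit in both groups. Results for some genes are not reported here.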

Additional observations from a re-analysis of the deposited data

How the results depend on the processing

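Counts of genes called moved with the tool, the scaling, the block, depth and the limits on cells, and the cause was not tested. For INS cells, 185 genes were called, against 35 with DESeq2, 33 without the library block and 23 with cells thinned to 5000 UMIs, and the count of members called was 0, or 1 with barcodes up to 30% mitochondrial UMIs. For SST cells, 155 genes were called, against 42 with DESeq2, 5 without the block, 29 thinned and 89 to 178 without 1 replicate, and the 1 member called became 0 with DESeq2, without the block and thinned, and 0 to 1 without 1 replicate. For TPH1 cells, 1963 genes were called, against 4297 with plain CPM, 1093 with DESeq2, 1237 thinned and 1142 to 2177 without 1 replicate, and 13 members became 8 thinned and 9 to 14 without 1 replicate. For GCG-alone cells against barcodes of no group, 4006 genes were called, against 2390 with DESeq2, 1895 at a mitochondrial limit of 10%, 2199 thinned, 1936 at a GCG limit of 10% and 2917 to 4410 without 1 replicate. The 14 members called there became 7 with plain CPM, 8 with DESeq2, 6 at the 10% mitochondrial limit, 7 thinned and 8 to 20 without 1 replicate. With no low-count filter 28 were called, but every member with a UMI in these cells was then tested, in place of 37. The share of all genes called without the filter is not given here, so the 28 cannot be set against it. At the 10% mitochondrial limit 39, 31 and 44 members were detected, against 66, 65 and 71.

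In TPH1 cells the log2 fold change of KCNJ6 was 0.27 with plain CPM in place of -0.20, and that of KCNH6 was -0.13 to 0.28 without 1 replicate in place of 0.11. Without the library block all 13 member calls in TPH1 cells held, 4 of 14 in GCG-alone cells were lost (KCNF1, KCNJ6, KCNK1 and KCNK17), and the block changed no other member call than these and KCNJ2 in SST cells. In TPH1 cells KCNH7 and KCNC1 were also lost with DESeq2 (adjusted p = 0.0743 and 0.0568). The 10% mitochondrial limit left too few INS, SST and TPH1 cells, and leaving out a library for INS cells left no residual degrees of freedom, so these were not run. Few TPH1, SST and INS cells limit what can be seen for members under about 10 CPM.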
